A study of Mus musculus with 20 samples.

Results

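Notch signalling was followed in the embryonic mouse heart through 10 genes, which were the ligands Jag1 and Dll4, the receptors Notch1, Notch2, Notch3 and Notch4, and the transcriptional targets Hes1, Hey1, Hey2 and Heyl. They were taken by symbol from the gene symbol column of the deposited count table, where they are 10 of 33495 genes. The 20 RNA-seq libraries were made from hearts in which floxed Kmt2d, the gene of an H3K4 methyltransferase, was deleted with 1 of 3 Cre lines. Mutants were Cre; Kmt2d fl/fl; mTmG/+ and controls Cre; Kmt2d fl/+; mTmG/+, all on C57BL/6, so every embryo carried a Cre, at least 1 floxed allele and a Rosa26 reporter of recombination. Mesp1Cre, which is active in early cardiac mesoderm, gave whole hearts at E9.0 (4 mutants, 4 controls). Mef2cAHF::Cre, active in the anterior heart field, gave right ventricles with outflow tract at E11.5 (3 libraries labelled mutant, 3 labelled control). Tnnt2::Cre, active in cardiomyocytes, gave whole hearts at E11.5 (3 mutants, 3 controls), in which cells other than cardiomyocytes keep the gene. The sources used here do not say whether a library was made from 1 heart or from several, so the tests weigh each difference against the spread between these libraries.

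In the Notch pathway a ligand on 1 cell binds a receptor on its neighbour, and proteolytic cleavage then frees the intracellular part of the receptor, which enters the nucleus and joins the DNA-binding protein RBPJ and Mastermind coactivators. Hes and Hey genes, which encode basic helix-loop-helix repressors, are the best known targets. In the developing heart the pathway is used in endocardium, in the formation of cushions and trabeculae, in arterial endothelium and in the smooth muscle cells and pericytes (mural cells) around vessels.

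Reads counted in genes ran from 21727258 to 45341870 per library. The targeted gene Kmt2d is listed under its earlier symbol Mll2, and its log2 fold change between mutants and controls was -0.21 in Mesp1Cre (edgeR quasi-likelihood test, FDR 0.0764) and -0.35 in Tnnt2::Cre (FDR 0.327), without overlap between the groups in either line. In Mef2cAHF::Cre it was 0.32 higher in the libraries labelled mutant (FDR 0.0359), which goes against the label. The titles and genotypes of these 6 libraries also disagree with the names of their columns in the table, which give each library the opposite genotype. Values for this line follow the titles and genotypes, hence the wording labelled mutant and labelled control, and in the reading by column names every log2 fold change of this line has the opposite sign and the same FDR. Tnnt2::Cre mutant replicate 1 stood apart from its group, with a chi-square per degree of freedom of 267.5 and 143 against the other mutants, which had 50.6 between them. Pairs of controls had 43.3 to 84.4. This measure takes raw counts scaled by library total. The sum of 14 erythroid markers was 134100 CPM in mutant replicate 1, 19680 and 44540 in mutant replicates 2 and 3, and 105200 to 162500 in controls. The part of erythroid RNA in the chi-square was not tested.

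By identity, the 10 genes lie on 6 chromosomes of mm9. The ligand Jag1 (ENSMUSG00000027276) is on chromosome 2 from 136907192 to 136942380 and Dll4 (ENSMUSG00000027314) on the same chromosome from 119151520 to 119161698. Of the receptors, Notch1 (ENSMUSG00000026923) is on chromosome 2 from 26313423 to 26372183, Notch2 (ENSMUSG00000027878) on chromosome 3 from 97851650 to 97951367, Notch3 (ENSMUSG00000038146) on chromosome 17 from 32257765 to 32303825, and Notch4 (ENSMUSG00000015468) on chromosome 17 from 34701213 to 34725448. Of the targets, Hes1 (ENSMUSG00000022528) is on chromosome 16 from 30065434 to 30067879, Hey1 (ENSMUSG00000040289) on chromosome 3 from 8663362 to 8667039, Hey2 (ENSMUSG00000019789) on chromosome 10 from 30552166 to 30562590, and Heyl (ENSMUSG00000032744) on chromosome 4 from 122910799 to 122927118. Counts are per whole gene, and no exon is resolved. Exons of 3 of the genes are overlapped by genes on the opposite strand, over 9.76% of exonic bases in Notch1, 6.07% in Notch3 (by Gm17276) and 5.56% in Dll4 (by Gm14207). The counting is not stated to use strand, so reads in these stretches have more than 1 possible source.

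RefSeq promoters on GRCm38.p6, from 250 bases before to 50 after a start site, were matched by symbol for 7 of the 10 genes, and none for Hes1, Hey1 or Heyl. Both strands were searched for TGGGAA, the core that RBPJ binds, and for CACGTG, an E box that Hes and Hey repressors are known to use. The promoter of Hey2 held 2 copies of TGGGAA, 1 of them on the reverse strand and 1 across the start site, and the other 6 promoters held none. For comparison, 25.6% of all 32851 promoters of this length held TGGGAA and 7.15% held CACGTG, which was in none of the 7. The sequences of Notch3, the 1 gene of the 10 that passed the threshold between genotypes, and of Hey2, the 1 with a motif match, are shown 5′ to 3′ up to base 20 after the start site, with TGGGAA or its reverse complement in capitals. Notch3 spans chr17:32166871-32167140 on the minus strand and Hey2 chr10:30842764-30843033 on the minus strand.
Notch3: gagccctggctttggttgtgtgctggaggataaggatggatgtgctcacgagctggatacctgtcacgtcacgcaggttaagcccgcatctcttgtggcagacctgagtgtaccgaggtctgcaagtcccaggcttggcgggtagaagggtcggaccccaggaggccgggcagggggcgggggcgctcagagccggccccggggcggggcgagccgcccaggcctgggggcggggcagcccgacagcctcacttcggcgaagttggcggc
Hey2: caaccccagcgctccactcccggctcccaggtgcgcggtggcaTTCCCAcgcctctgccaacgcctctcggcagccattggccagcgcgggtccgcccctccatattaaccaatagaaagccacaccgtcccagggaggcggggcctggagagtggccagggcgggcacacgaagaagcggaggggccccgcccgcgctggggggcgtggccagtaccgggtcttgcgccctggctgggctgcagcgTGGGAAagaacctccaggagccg
A match to these letters is a description of the sequence, and binding was not measured in these libraries.

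Levels of the 10 genes differed widely per gene length, which the FPKM of the authors allows to be compared. In the control groups the targets Hey1, which marks atrial and atrioventricular myocardium, and Hey2, which marks ventricular compact myocardium, stood highest by median. Hey1 had a median of 19.8 FPKM in Mesp1Cre controls, 17.9 in the Mef2cAHF::Cre libraries labelled control and 14.2 in Tnnt2::Cre controls, and Hey2 had 13.4, 22.1 and 13.2 (Mesp1Cre, Mef2cAHF::Cre, Tnnt2::Cre). The ranges of these 2 genes overlapped in every control group. Jag1, a ligand of endocardium, cushion and vessel wall, had median levels of 5.69 to 9.66 FPKM and Hes1, the most widely used Hes repressor, of 5.93 to 7.62. Among the receptors the order changed with the line. Notch1, the main receptor of endocardium and endothelium, led in Mesp1Cre controls at 3.97 FPKM, where its range overlapped those of Notch2 (3.40) and Notch3 (2.82). In the other lines Notch2 led (9.03 and 4.74 FPKM). This order depends on the gene length used. The deposited length was 7341 bases for Notch2, against 10506 annotated exonic bases, and 12846 for Notch1, against 14232. Notch4, a receptor of endothelium, had the lowest receptor level, from 0.789 to 1.37 FPKM, and Dll4, the ligand of arterial and sprouting endothelium, was near it with 1.21 to 1.89. Heyl, a target that mural cells express, was lowest of all in Mesp1Cre controls at 0.302 FPKM.

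**Figure D1:**
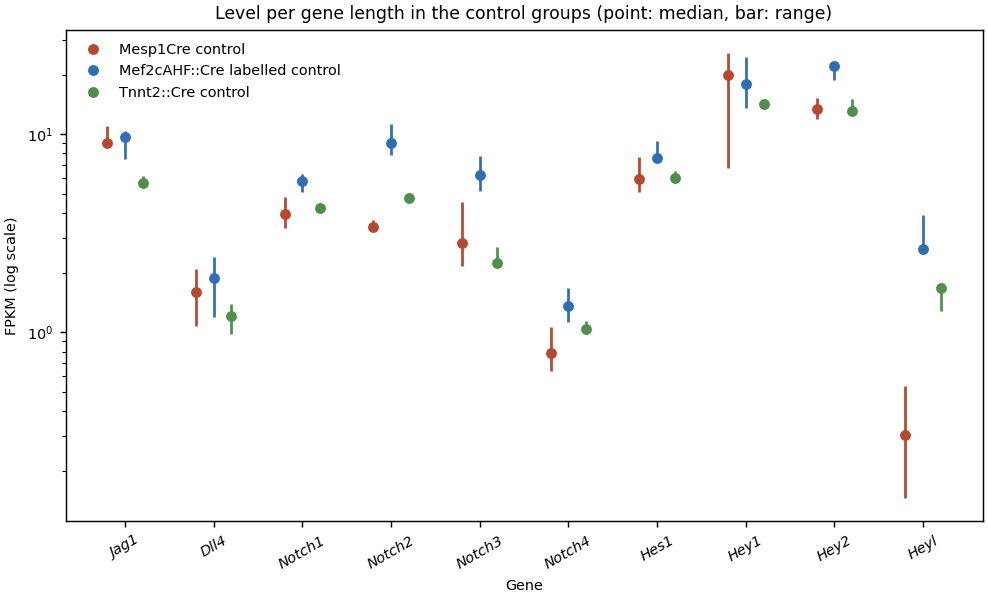
FPKM of the authors (log axis) for each gene in the 3 control groups, with the median as a point and the lowest to highest library as a bar. Hey1 and Hey2 have the highest medians, and the median of Heyl runs from 0.302 FPKM in Mesp1Cre controls to 2.65 in the Mef2cAHF::Cre libraries labelled control.

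Across the 6 groups, levels are given as CPM after TMM normalisation of all 20 libraries together, and the plot of CPM by library shows each value. Notch2 and Heyl were the genes whose levels separated all 3 lines. Notch2 was lowest in Mesp1Cre (23.4 to 28.8 CPM over both genotypes), intermediate in Tnnt2::Cre (31.4 to 41.0) and highest in Mef2cAHF::Cre (51.4 to 72.2), with no overlap between the 3 lines. Heyl followed the same order, from 0 to 2.91 CPM in Mesp1Cre over 5.17 to 9.71 in Tnnt2::Cre to 10.5 to 21.1 in Mef2cAHF::Cre, again without overlap. Notch1 and Hey2 were highest in Mef2cAHF::Cre. For Notch1 these libraries had 64.5 to 80.2 CPM, and 1 Mesp1Cre mutant at 65.6 was the only library of another line within that range. For Hey2 they had 46.8 to 52.5 CPM, and 1 Mesp1Cre mutant at 47.7 was again the only other library that high. Jag1 was lower in Tnnt2::Cre (35.3 to 38.8 CPM) than in all but 1 of the other libraries, which had 36.6 to 64.9 CPM. Notch3 was higher in every Mef2cAHF::Cre library (31.0 to 54.8 CPM) than in any of Tnnt2::Cre (16.0 to 26.6), and Mesp1Cre (18.0 to 64.0) overlapped both. The 6 groups of Dll4, Notch4, Hes1 and Hey1 each overlapped their neighbours in the order of medians. Mesp1Cre and Tnnt2::Cre share the tissue but not the stage, and Tnnt2::Cre and Mef2cAHF::Cre share the stage but not the tissue. The column names also give each line its own number, whose meaning is not stated in the sources used here. Within each pair the line, the feature not shared and any batch that this number marks cannot be told apart. In bulk RNA, fewer cells of a type and less RNA per cell cannot be told apart either.

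**Figure D2:**
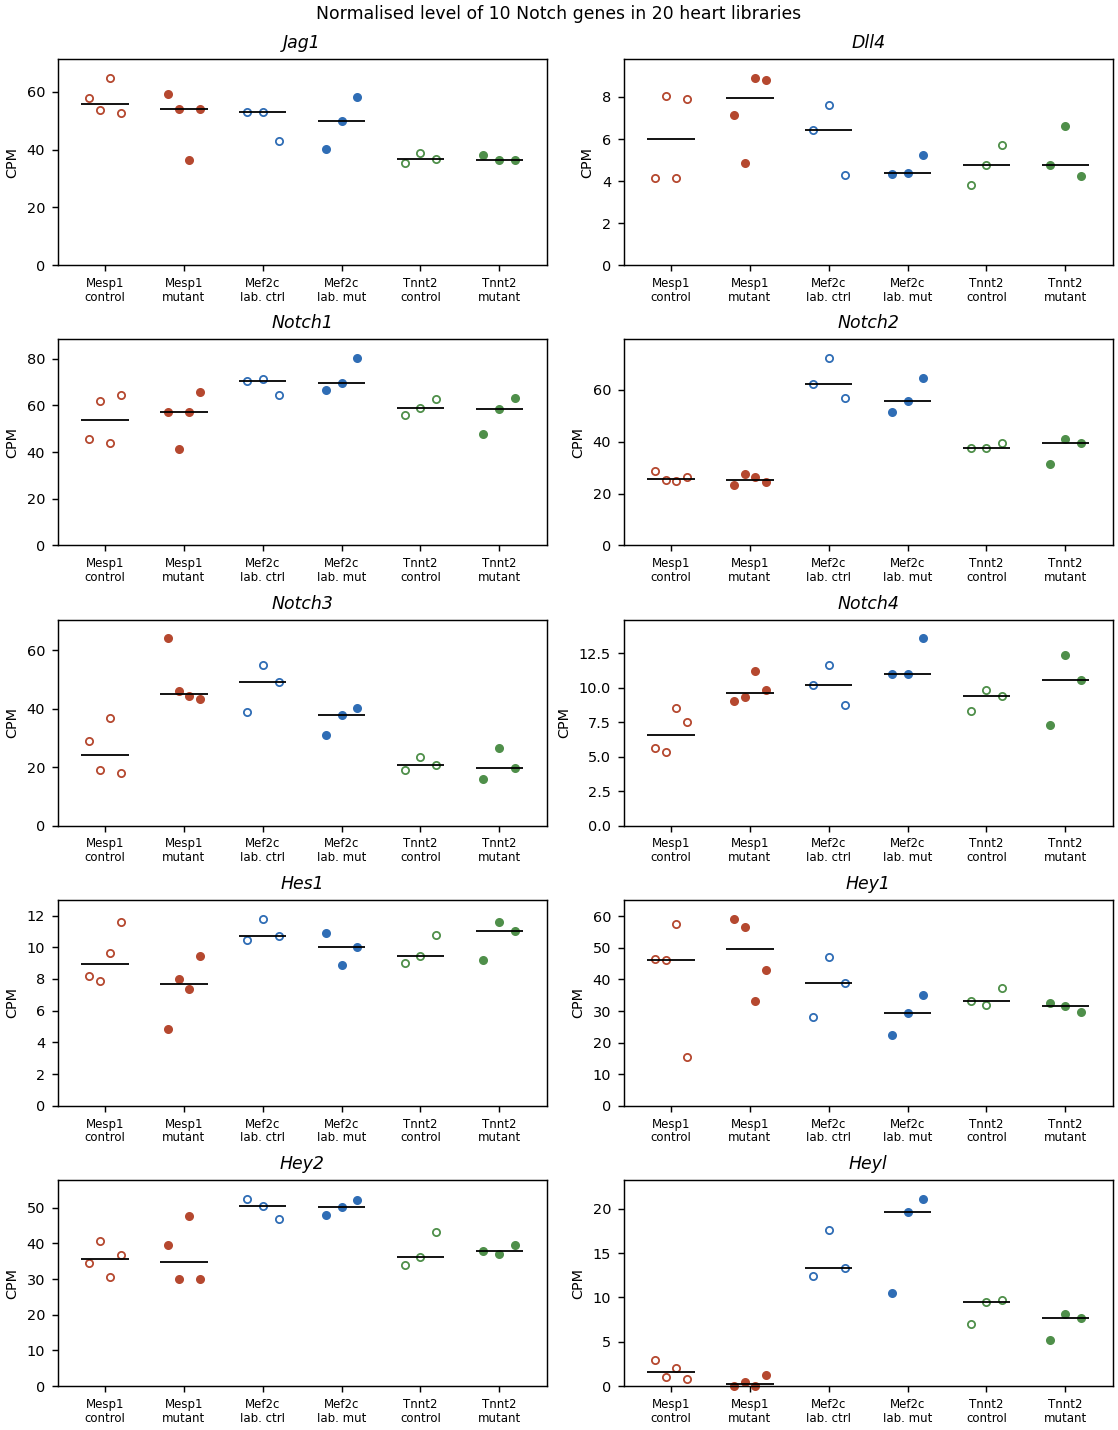
CPM after TMM normalisation over all 20 libraries (vertical axis) for each of the 10 genes in the 6 groups, with open circles for control libraries, filled circles for mutant libraries, the groups of Mef2cAHF::Cre by their labels (lab. ctrl, labelled control, and lab. mut, labelled mutant), and a line at each group's median. In Notch3 the 4 Mesp1Cre mutants (43.4 to 64.0 CPM) lie above the 4 controls (18.0 to 36.9), and in Heyl the Mesp1Cre libraries lie below those of both other lines.

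The comparison of mutants with controls asks which of these genes change when both copies of Kmt2d are deleted rather than 1. In Mesp1Cre hearts, 1 of the 10 genes was differentially expressed at an FDR below 0.05 (edgeR quasi-likelihood test, Benjamini-Hochberg over 15883 genes tested), and this was Notch3, which was higher in mutants. Of all genes tested 6.17% were higher, and 5.29% were lower, as were 0 of the 10. At an unadjusted p below 0.05 there were 2, beside 26.9% of all genes. The median log2 fold change of the 10 was 0.06 and that of all genes tested -0.002.

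Notch3, the receptor best known from mural cells, had 64.0, 46.1, 44.2 and 43.4 CPM in the 4 mutants and 28.9, 19.1, 36.9 and 18.0 CPM in the 4 controls. Every mutant lay above every control, and mutant replicate 1 lay above the other mutants. The log2 fold change was 0.96 (SE 0.21, 95% interval 0.50 to 1.42), a 1.94-fold higher level (edgeR FDR 0.0131), with means of 25.7 ± 8.91 CPM for controls and 49.4 ± 9.81 for mutants (SD, n = 4 each). It passed the threshold in all 8 fits that each left out 1 library (log2 fold change 0.82 to 1.18, FDR 0.00426 to 0.0422) and under all 10 other alternatives (0.93 to 1.13). Between 444 and 1517 reads per library stand behind these values.

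Notch4 was the other receptor whose groups did not overlap. It had 9.03, 9.35, 11.3 and 9.86 CPM in mutants and 5.63, 5.36, 8.55 and 7.52 in controls. The lowest mutant lay just above the highest control, and the log2 fold change of 0.56 (SE 0.20, 95% interval 0.13 to 1.00) did not pass (edgeR FDR 0.0888). It passed with DESeq2 (FDR 0.049) and in the fit of all 6 groups together (FDR 0.0335). Groups without overlap were thus found for 2 of the 10 genes, both with mutants above, where 18.1% of all genes tested had separate groups and 8.39% had mutants above controls.

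Notch1 and Notch2 had values near 0, with log2 fold changes of 0.06 (95% interval -0.29 to 0.40) and -0.03 (-0.27 to 0.20). For Notch2 the mutants had 23.4 to 27.4 CPM and the controls 25.0 to 28.8, and for Notch1 41.5 to 65.6 and 43.7 to 64.2. The groups overlapped over most of their range in each receptor. The ligands also overlapped between genotypes. Jag1 had a log2 fold change of -0.15 (95% interval -0.45 to 0.15, FDR 0.53), with mutant replicate 3 at 36.6 CPM and the other mutants at 53.9 to 59.4. Dll4 had 0.31 (-0.31 to 0.94, FDR 0.537), with 7.13, 4.85, 8.91 and 8.82 CPM in mutants and 4.16, 8.04, 4.16 and 7.88 in controls.

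Among the targets, Heyl had the largest fitted change and the fewest reads. It had 0, 13, 1 and 31 reads in the 4 mutants and 79, 26, 53 and 19 in the 4 controls, that is 0 to 1.20 CPM and 0.772 to 2.91 CPM. The highest mutant lay above 2 of the controls, so the groups overlapped, and 2 mutants were at or under 3 reads. The fitted log2 fold change was -1.93 (SE 0.91, 95% interval -3.90 to 0.04, edgeR FDR 0.196), which at such counts depends on the prior count and is no bound. It passed only in the fit of all 6 groups (FDR 0.0276), where the spread is shared with libraries of higher counts. Hes1 had 4.85 to 9.48 CPM in mutants and 7.88 to 11.6 in controls, a log2 fold change of -0.31 (95% interval -0.80 to 0.18, FDR 0.421). Hey1 had 59.3, 56.4, 33.3 and 43.0 CPM in mutants and 46.3, 46.0, 57.6 and 15.4 CPM in controls. Control replicate 4 lay far below the other controls, and the log2 fold change of 0.23 (95% interval -0.43 to 0.89) became -0.04 without it. Hey2 had 0.06 (95% interval -0.27 to 0.40, FDR 0.836).

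**Figure D3:**
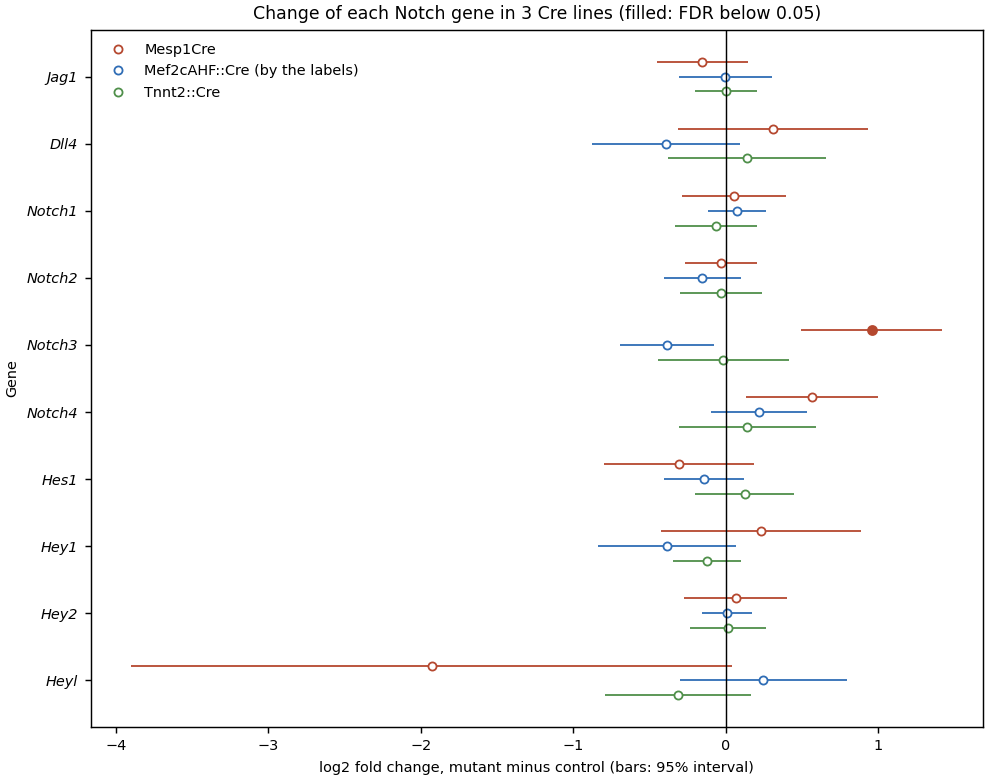
Log2 fold change of mutant minus control (horizontal axis) with its 95% interval for each gene in Mesp1Cre, Mef2cAHF::Cre by the labels, and Tnnt2::Cre, with filled points at an FDR below 0.05. Only Notch3 in Mesp1Cre (0.96) is filled, and the interval of Heyl in Mesp1Cre runs from -3.90 to 0.04.

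Summed markers of endothelium and of mural cells, which express Notch receptors, moved with genotype in the same Mesp1Cre libraries, while those of arterial endothelium and cushion mesenchyme overlapped. The summed CPM of 18 endothelial and endocardial markers was 1009 to 1151 in mutants and 744.3 to 871.1 in controls, without overlap, and 6 of the 18 were higher and 0 lower at an FDR below 0.05, beside 6.17% and 5.29% of all genes. Pecam1, an adhesion molecule of endothelium, was higher by 0.51 on the log2 scale (edgeR FDR 0.0283). That call held in 3 of 8 fits with 1 library left out and not with a block by the number in the sample descriptions. The other markers called were Kdr, Flt1, Npr3, Egfl7 and Sox17, higher by 0.62 (Npr3) to 2.04 (Sox17). They passed in all 8 of those fits and under all 10 other alternatives. The endothelial cadherin Cdh5 had 0.23, which did not pass (FDR 0.0988). The summed CPM of 11 mural markers was lower in mutants, 2658 to 2964 against 3034 to 3841, with 0 higher and 3 lower of the 10 tested. Most of that sum was Acta2, a smooth muscle actin that embryonic heart muscle also expresses (mean 2204 CPM, SD 185.2, in mutants and mean 2638, SD 255.1, in controls, FDR 0.076), and Pdgfrb, the receptor that defines pericytes, had -1.09 (FDR 0.102). None of the 18 endothelial markers was at 0 in any library, and 1 of the 11 mural markers was at 0 in at least 1. Of 16 cardiomyocyte markers 2 were higher and 2 lower, with sums of 58450 to 70700 CPM in mutants and 47120 to 60470 in controls, which overlapped. Among them Tnnt2 averaged 1773 CPM (SD 36.4) in mutants and 1663 (SD 187.7) in controls, with an FDR of 0.394. Of 14 erythroid markers 1 was higher and 5 lower, with sums of 2406 to 7980 CPM in mutants and 5737 to 18410 in controls, which overlapped. The sum of 9 arterial endothelial markers was 386.2 to 419.5 CPM in mutants and 364.3 to 439.3 in controls, with 1 higher and 0 lower. For 12 cushion mesenchyme markers it was 3487 to 4014 CPM against 3179 to 4033, with 0 higher and 1 lower. The part of these cell types in the Notch3, Notch4 and Heyl values was not tested.

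**Figure D4:**
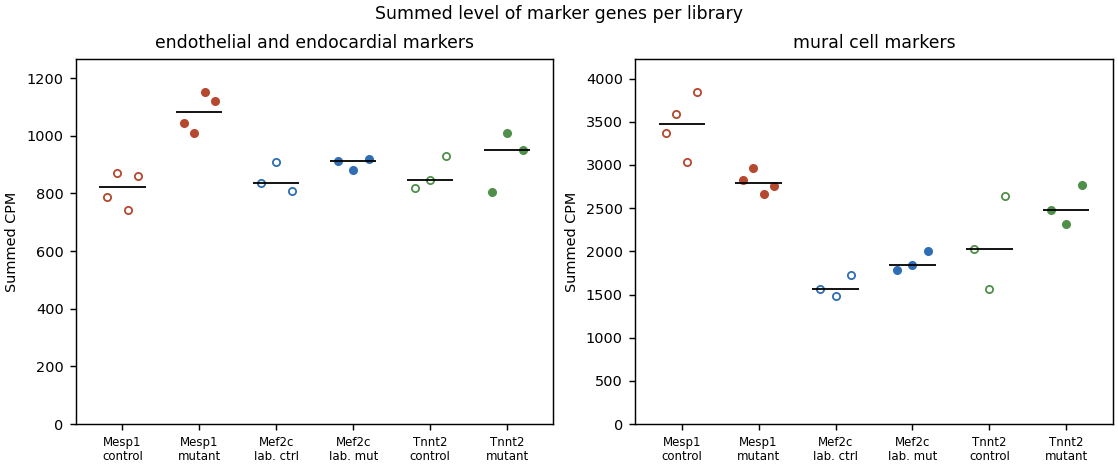
Summed CPM of 18 endothelial and endocardial markers and of 11 mural markers (vertical axes) in each library of the 6 groups (lab. ctrl and lab. mut, labelled control and labelled mutant), with open circles for controls, filled circles for mutants and a line at the median. In Mesp1Cre the mutants lie above the controls for the endothelial list (1009 to 1151 against 744.3 to 871.1) and below them for the mural list.

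In Mef2cAHF::Cre right ventricles and outflow tracts, 0 of the 10 genes passed an FDR of 0.05 with edgeR, where 2.85% of 16920 genes tested did. DESeq2 also called 0 of them, and Notch3 alone of the 10 had an unadjusted p below 0.05, beside 17.9% of all genes. The groups overlapped for all 10 genes, where 23.9% of all genes tested had separate groups. By the labels the 10 had a median log2 fold change of -0.07, and with the column names it was 0.07.

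Notch3 had 31.0, 38.0 and 40.2 CPM in the libraries labelled mutant and 38.9, 54.8 and 48.9 in those labelled control. The highest library labelled mutant lay above the lowest labelled control, and the log2 fold change was -0.38 (SE 0.14, 95% interval -0.69 to -0.08, edgeR FDR 0.176). By the column names it was 0.38 with the same FDR. It passed once, when every gene with at least 1 count was tested (FDR 0.031). Hey1 and Dll4 had the other values furthest below 0 by the labels, -0.38 (95% interval -0.84 to 0.07, FDR 0.365) and -0.39 (-0.88 to 0.10, FDR 0.389), or 0.38 and 0.39 by the column names. The libraries labelled mutant had 22.5, 29.5 and 35.1 CPM of Hey1 and those labelled control 28.0, 47.2 and 38.8. For Dll4 the values were 4.33, 4.36 and 5.26 CPM against 6.44, 7.63 and 4.27, so that for Dll4 the lowest of all 6 libraries was labelled control, and for Hey1 a library labelled control lay between those labelled mutant.

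The remaining genes of this line had log2 fold changes from -0.15 in Notch2 to 0.25 in Heyl by the labels, each with an interval that includes 0. With the column names Notch2 had 0.15, Hes1 0.14, Jag1 0.00, Hey2 -0.01, Notch1 -0.07, Notch4 -0.22 and Heyl -0.25. Heyl had 10.5, 19.7 and 21.1 CPM in the libraries labelled mutant and 12.5, 17.6 and 13.3 in those labelled control. Jag1 and Hey2 were closest to 0, with intervals of -0.31 to 0.30 and -0.16 to 0.17. Hey2, at 47.9 to 52.3 CPM and 46.8 to 52.5 CPM, had the narrowest interval of the 10 in this line. The mural marker sum was 1782 to 2007 CPM in the libraries labelled mutant and 1484 to 1729 in those labelled control, the higher range belonging to the controls if the column names are followed, and its part in the Notch3 and Heyl values was not tested. Of 18 endothelial and endocardial markers, 3 passed as higher by the labels (Npr3, Plvap and Ramp2) and 0 as lower, beside 2.85% of all genes. By the labels 9 of the 18 had a log2 fold change above 0. The groups were separate for 9 of the 18, beside 23.9% of all genes tested. Besides the 3 that passed, these were Tek (0.34) and Tie1 (0.21) above 0. Below 0 they were Sox17 (-1.10), Cldn5 (-0.54), Flt1 (-0.44) and Emcn (-0.43). The sums of the 18 markers overlapped, at 882.4 to 919.1 CPM for labelled mutant and 807.3 to 909.2 for labelled control.

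In Tnnt2::Cre hearts, 0 of the 10 genes passed with edgeR, where 0.293% of 17045 genes tested did, and DESeq2 called 0. At an unadjusted p below 0.05 there were also 0, beside 11.9% of all genes. The groups of mutants and controls overlapped for all 10, while 16.9% of all genes tested were separate. Log2 fold changes ran from -0.31 in Heyl (95% interval -0.79 to 0.17) to 0.14 in Notch4 (-0.31 to 0.59). Notch3 had 16.0, 26.6 and 19.5 CPM in mutants and 19.0, 23.5 and 20.6 in controls, a log2 fold change of -0.02 (95% interval -0.44 to 0.41, FDR 0.983). The 3 controls lay within the range of the mutants. Mutant replicate 1, the library that stood apart, had the lowest Notch1, Notch2, Notch3, Notch4 and Heyl of all 6 libraries, and without it the value of Notch3 was 0.14 and that of Notch2 0.08. Without it 0 of the 10 passed, while the number past the threshold among all genes rose from 50 of 17045 to 896 of 17487. Without control replicate 3 that number was 4, of 17560 tested, again with 0 of the 10. Jag1 had 36.3 to 38.1 CPM in mutants and 35.3 to 38.8 in controls, with an interval of -0.20 to 0.20.

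Whether the genotype effect itself differed between lines was tested as an interaction, with edgeR fitted once to the 20 libraries and 18391 genes. For Notch3 the effect in Mesp1Cre exceeded that in Mef2cAHF::Cre by the labels by 1.33 on the log2 scale (SE 0.31, 95% interval 0.68 to 1.97, FDR 0.00826), and this held in each of the 20 fits that left out 1 library (FDR 0.00171 to 0.0321). Notch3 was the only one of the 10 past the threshold there, where 11.3% of all genes were. By the column names the difference was 0.56 (-0.09 to 1.20, FDR 0.393), so it rests on the reading of labels. In that reading 0 of the 10 passed with edgeR or DESeq2, where 1.63% of all genes did, and 2 (Notch4 and Heyl) had an unadjusted p below 0.05, beside 16.2%. Between Mesp1Cre and Tnnt2::Cre the Notch3 difference was 0.96 (0.31 to 1.61, edgeR FDR 0.0953), and 0 of the 10 genes passed with edgeR, where 3.04% of all genes did. With DESeq2 Notch3 passed this comparison (FDR 0.0345), and with edgeR it was the 1 of the 10 at an unadjusted p below 0.05, beside 19.2% of all genes. Heyl had a difference of -2.18 between Mesp1Cre and Mef2cAHF::Cre by the labels (-3.80 to -0.56, FDR 0.0759) and of -1.62 between Mesp1Cre and Tnnt2::Cre (-3.25 to 0.01, FDR 0.265). Notch4 had 0.76 between Mesp1Cre and Mef2cAHF::Cre by the column names (0.21 to 1.31, FDR 0.146). Between Mef2cAHF::Cre and Tnnt2::Cre 0 of the 10 genes passed by either reading in edgeR or DESeq2, where 3.19% of all genes did by the labels, against 0% with the column names. At an unadjusted p below 0.05 there were also 0 of the 10, beside 15.3% and 2.57%.

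The rest of the pathway was taken from 72 genes listed by role, 70 of them in the table. In Mesp1Cre 61 were tested, and mutants had higher levels of 7 and lower levels of 3, against 6.17% and 5.29% of all genes. Their median log2 fold change was 0.10. By role, the genes that rose were 4 of 16 in the nuclear complex, 2 of 12 regulators and 1 of 8 for ligand endocytosis and glycosylation, and 0 of 9 for receptor cleavage passed. Egfl7, a secreted protein of endothelium that can bind Notch and is also on the endothelial marker list, rose by 0.83 (SE 0.13, edgeR FDR 0.00212) from 38.8 ± 5.19 to 67.8 ± 11.3 CPM (SD, n = 4 each). Dtx3, of the Deltex family of E3 ligases, rose by 0.87 (SE 0.14, FDR 0.00209) and Cir1, a corepressor that binds RBPJ, by 0.58 (SE 0.14, FDR 0.0198). Maml1 and Maml3, Mastermind coactivators, Ep300, a histone acetyltransferase, and Mib2, an E3 ligase for ligands, also rose, by 0.42, 0.59, 0.24 and 1.06. Maml1, Ep300 and Mib2 did not pass with a block by replicate number or by the number in the sample descriptions, which leaves 2 of 16 (Cir1 and Maml3) in the nuclear complex. With each of the 8 libraries left out in turn, Dtx3 and Egfl7 passed in all 8 fits, Cir1 in 4, Maml3 in 3, Maml1 and Mib2 in 2 and Ep300 in 1. The genes that fell were Bmp10 and Nrg1, growth factors of the trabeculating ventricle, and the cyclin Ccnd1. Bmp10 averaged 10.2 ± 1.39 CPM in the 4 controls and 4.70 ± 1.84 in the 4 mutants (SD), which is -1.09 on the log2 scale (SE 0.26, edgeR FDR 0.0184). Nrg1 went from 15.8 ± 2.88 to 9.20 ± 1.88 CPM, -0.76 (SE 0.19, FDR 0.0213), and Ccnd1 had -0.70. Leaving out 1 library, Bmp10 passed in 5 of 8 fits, Nrg1 in 4 and Ccnd1 in 3, and Nrg1 and Ccnd1 did not pass on either FPKM scale.

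In Mef2cAHF::Cre 63 of the listed genes were tested. Relative to labelled control, labelled mutant was higher for 2 and lower for 1, beside 2.85% of all genes. Dll1, a further Notch ligand, averaged 4.83 ± 0.535 CPM in the 3 libraries labelled mutant against 1.76 ± 0.34 in the 3 labelled control (SD), or 1.45 on the log2 scale (SE 0.20, edgeR FDR 0.0105). Gja5, the connexin of arteries and trabeculae, had 0.92 (SE 0.15, FDR 0.0195) and Myc -0.58 (SE 0.08, FDR 0.0105). By the column names these signs are reversed. Without labelled mutant replicate 1 none of the 3 passed. Dll1 passed in the other 5 of 6 fits with 1 library left out and Gja5 and Myc in 3 each, while Dll1 and Myc did not pass in the 6-group fit and Gja5 did not on either FPKM scale. In Tnnt2::Cre 0 of 64 tested passed with edgeR, beside 0.293% of all genes, while 9 had an unadjusted p below 0.05, beside 11.9% of all genes, and DESeq2 called 2 (Bmp10 and Neurl1a), beside 366 of 16805 genes. Bmp10, which fell in Mesp1Cre, had 0.81 in Tnnt2::Cre (95% interval 0.29 to 1.34, FDR 0.246).

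**Figure D5:**
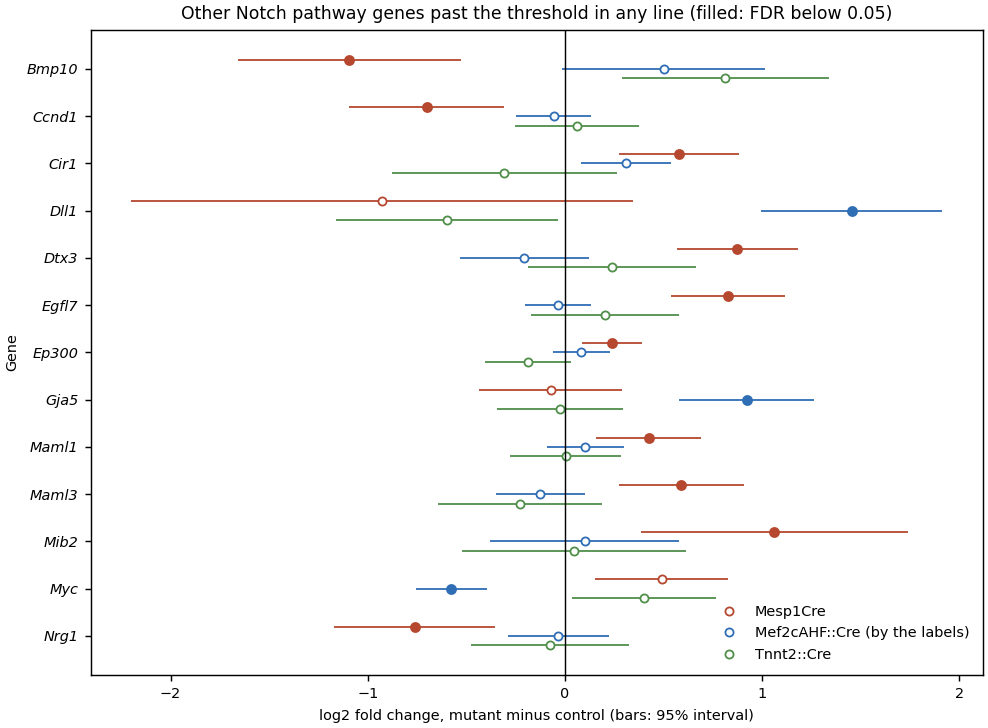
Log2 fold change of mutant minus control with its 95% interval (horizontal axis) for the 13 other Notch pathway genes past the threshold in at least 1 line, in the 3 lines, with filled points at an FDR below 0.05. In Mesp1Cre 7 points are filled above 0 and 3 below, and in Mef2cAHF::Cre by the labels Dll1 (1.45), Gja5 (0.92) and Myc (-0.58) are filled.

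As a description over the 20 libraries, which share stage, tissue and column-name number within a line, Pearson's r of log2 CPM was taken between each gene and 18381 others. Heyl followed Pdgfrb most closely (r = 0.968), the growth factor receptor that defines pericytes, then Mfap4 (0.966), a microfibril protein, and Sox9 (0.964), a factor of cushion mesenchyme. Notch2 followed Ptprd (0.977), Ltbp4 (0.976) and Robo1 (0.973), and Notch3 followed Foxp1 (0.934) and Ermp1 (0.93). Heyl and Notch2 both step between the lines, and r between them was 0.822 over all libraries and 0.331 for deviations from group means. For Notch1 the closest were Pitpnm2 (0.878), Sorcs2 (0.847) and Myh7 (0.843), and for Notch4 Sgcd (0.866), Cdh13 (0.846) and Sgce (0.845). For the ligands they were Rsf1, Rfx7 and Pip4k2b with Jag1 (0.893 to 0.875) and Gm2004, Mef2a and Camta2 with Dll4 (0.825 to 0.783). For the targets they were Nts, Sh2d3c and Iffo2 with Hes1 (0.846 to 0.825), CT025642.1, Mapk7 and Fzd7 with Hey1 (0.896 to 0.821), and AL645639.1, Tsc22d2 and Nxt2 with Hey2 (0.881 to 0.855). Between the 10 genes themselves r ran from -0.532 (Hes1 and Hey1) to 0.822.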

How the data were processed

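RNA was measured in 20 libraries by RNA-seq. The column names give each Cre line its own number, and whether it marks a sequencing batch is not stated. Per the labels and the submitters' processing notes the authors aligned reads to mm9 with TopHat2 2.0.8b and deposited, for 33495 genes, raw counts per gene and FPKM computed with USeq. The table also holds 20 deposited columns of variance-corrected counts on the log2 scale, which were not used. The strand setting of the counting is not given in the sources used here. Sources differ on the library kit, and for Mesp1Cre a protocol text gives E11.5 where the sample labels give E9.0.

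Mutants were compared with controls within each line by the quasi-likelihood test of edgeR 4.0.16 in R 4.3.3, after its default filter on low counts and TMM normalisation, with Benjamini-Hochberg adjustment over all genes tested and a threshold of 0.05. Genotype effects were compared between lines in 1 fit of all 6 groups. Intervals are 95% intervals of the log2 fold change or log2 difference, with a standard error based on the spread between libraries. Reads counted in genes per library were 21727258 to 28790705 in Mesp1Cre, 25001020 to 37165163 in Mef2cAHF::Cre and 35379996 to 45341870 in Tnnt2::Cre. Alternatives were DESeq2 1.42.0 (its size factors, or its Wald test), other filters, a 6-group fit, blocks by replicate number or by a number in the sample descriptions, limma 3.58.1 on log2(FPKM + 0.1) and log2(FPKM + 1), hemoglobin genes left out, and each library left out in turn. The fitting code was tested on simulated data.

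The genes, the lists and the tests were chosen with earlier results of these data known. The text names all 10 genes, the 8 other pathway genes with the smallest adjusted p among those past the threshold, the 3 genes most like each of the 10 by Pearson's r (1 result is not reported here), the targeted gene and the defining markers. The other pathway genes and the other markers named were chosen after their values were seen.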

Additional observations from a re-analysis of the deposited data

Results flagged for a closer look

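Notch3 in Mesp1Cre mutant replicate 1, at 64.02 CPM, lay far from the other 3 mutants (43.4 to 46.1 CPM) by Dixon's criterion. It was the 1 library so marked in 20 groups of 4 libraries tested, and chance marks about 1 in 20. Without it the Notch3 change in Mesp1Cre was 0.82 on the log2 scale (edgeR FDR 0.0422).

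The Notch3 genotype effect differed between Mesp1Cre and Mef2cAHF::Cre by the labels, by 1.33 on the log2 scale in the test of the difference itself (edgeR FDR 0.00826), 1 of 50 such tests on the 10 genes. By the column names of the table it was 0.56 (FDR 0.393).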

How the results depend on the processing

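Of the 10 genes, the number past the threshold in Mesp1Cre was 1 and became 2 with the DESeq2 Wald test and 3 in the 6-group fit. In Mef2cAHF::Cre it was 0 and became 1 (Notch3) when genes with at least 1 count were tested, and in Tnnt2::Cre it was 0 under every alternative run. Other pathway genes past the threshold in Mesp1Cre went from 10 to 16 in the 6-group fit and to 8 with at least 1 count, were 9 with the replicate block, and ranged from 3 (without control replicate 1 or mutant replicate 1) to 12 when 1 library was left out. In Mef2cAHF::Cre they went from 3 to 1 in the 6-group fit and ranged from 0 (without labelled mutant replicate 1) to 4, and in Tnnt2::Cre from 0 to 2 with DESeq2 and from 0 to 2 (without mutant replicate 1). Endothelial markers in Mesp1Cre went from 6 to 10 with both FPKM scales and to 5 (without Pecam1) with a block by the number in the sample descriptions, and ranged from 5 to 7 without a library. In Mef2cAHF::Cre they went from 3 of 18 to 7 with DESeq2 and with at least 1 count, to 1 in the 6-group fit and with both FPKM scales, and ranged from 1 to 4 without a library. Over all genes of that line 482 of 16920 passed in the main fit, 1078 of 17549 with DESeq2 and 1311 of 29613 with at least 1 count. In Tnnt2::Cre the endothelial markers went from 0 to 1 with DESeq2 and ranged from 0 to 1. The cause of these moves was not tested.

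Same-numbered libraries of a line deviated together with r of -0.031 to 0.127. Deviations from the means of so few libraries cannot show whether the numbers pair them. In Mesp1Cre a mutant and a control with the same replicate number also share the number in the sample descriptions. Over all genes tested in Mesp1Cre, 1821 passed in the main fit, 1384 with the replicate block and 1482 with the block by that number. With the replicate block the Mesp1Cre minus Tnnt2::Cre difference went from 0 to 1 of the 10 genes (Notch3, 1.03, FDR 0.0355), as it did with DESeq2, and ranged from 0 to 1 without a library (1 without Tnnt2::Cre mutant replicate 2 or Mesp1Cre control replicate 3). The Mesp1Cre minus Mef2cAHF::Cre difference by the labels ranged from 1 to 2. The block changed no other count of the 10 genes, and it moved Jag1 in Tnnt2::Cre from 0.00 to 0.001. Leaving each library out of the 6-group fit was added after the data were seen.

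Values near 0 that did not pass turned sign. With log2(FPKM + 0.1) and log2(FPKM + 1) Notch2 in Mesp1Cre was 0.12 and 0.096. In Mef2cAHF::Cre Notch1 was -0.065 and -0.056 and Hey2 -0.125 and -0.12. In Tnnt2::Cre Jag1 was 0.114 and 0.099, Notch1 0.041 and 0.037, Notch2 0.073 and 0.065, and Notch3 0.07 and 0.061. FPKM shifted the median of all genes by 0.148 (Mesp1Cre), -0.131 (Mef2cAHF::Cre) and 0.111 (Tnnt2::Cre). Jag1 in Tnnt2::Cre was 0.003 with at least 1 count and 0.001 without hemoglobin genes. With 1 library left out, Mesp1Cre ranges were -0.032 to 0.183 (Notch1), -0.061 to 0.016 (Notch2), -0.043 to 0.436 (Hey1) and -0.077 to 0.164 (Hey2). Mef2cAHF::Cre ranges were -0.138 to 0.124 (Jag1), -0.01 to 0.126 (Notch1) and -0.035 to 0.045 (Hey2). Tnnt2::Cre ranges were -0.034 to 0.039 (Jag1), -0.078 to 0.28 (Dll4), -0.155 to 0.046 (Notch1), -0.11 to 0.082 (Notch2), -0.243 to 0.143 (Notch3), -0.041 to 0.329 (Notch4) and -0.058 to 0.117 (Hey2). Depth limits Heyl in Mesp1Cre, with 0 to 79 reads per library.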
